A study of Mus musculus with 2 samples.

Results

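Hemidesmosome and basal adhesion genes build the structures that hold a basal keratinocyte to the basement membrane. The set comprised 9 mouse genes, namely the integrin subunits Itga3, Itga6, Itgb1 and Itgb4, the transmembrane collagen Col17a1, the laminin chains Lama3 and Lamb3, the plakin Dst and the hyaluronan receptor Cd44. They were chosen by name, as all gene spots present on both arrays whose gene name in the scanner output was one of these 9 symbols. This gave 25 probes of 41174 and 43 spots of 43379, since 1 probe of Itgb1 and 1 of Cd44 were each printed 10 times. Each probe was a 60-base oligonucleotide, and 9 of 27975 gene names on the array belonged to the set.

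RNA of primary keratinocytes from the epidermis was compared between wild-type mice and K14-caSmad1 mice. Both groups were of the strain FVB/NJ and 20 days old. K14-caSmad1 mice carry a transgene that overexpresses Smad1 in a constitutively active form. The name of the line refers to the keratin 14 promoter, which is active in basal keratinocytes, and the labels do not state in which cells the transgene was expressed. Smad1 is a transcription factor through which bone morphogenetic proteins act. The labels name no other allele or agent, and they do not state the number of animals, their sex, whether animals were pooled or how many founder lines were used. Each of the 2 arrays, called biological replicates 1 and 2 by the labels, held wild-type RNA in the Cy3 channel and K14-caSmad1 RNA in the Cy5 channel. There was no dye swap, so a dye effect of a probe and a difference between the genotypes cannot be told apart.

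In stratified epithelia the integrin α6β4 spans the basal membrane of the cell and binds a laminin in the basement membrane to which Lama3 and Lamb3 contribute chains. Inside the cell β4 is tied to keratin filaments through the plakins plectin and dystonin, with Col17a1 as a further transmembrane partner, and the whole is the hemidesmosome. The integrin α3β1 binds the same laminin but is linked to actin, and Cd44 is a cell-surface receptor for hyaluronan that is abundant on keratinocytes. Inherited loss of the integrin, laminin or collagen parts causes blistering of the skin.

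The arrays repeated closely. The log2 ratios of 12300 probes with 1 spot, well above background in both channels of both arrays, differed between the arrays with an SD of 0.095, against 0.105 predicted from the spread of repeated spots. For 81 repeated probes the SD was 0.053, above the 0.033 predicted from spots. Because the labels do not say whether the arrays held RNA of separate animals, limma p-values here measure how well the arrays repeated and may hold technical spread only. Gene spots well above background numbered 15570 on array 1 and 16144 on array 2 for wild type, and 14412 and 15800 for K14-caSmad1. The negative control spots had an SD of 11.2 intensity units for wild type on each array, but of 52.3 and 35.0 in the K14-caSmad1 channel, and no gene spot was saturated (0 on either array). The limma threshold was an adjusted p of 0.05 (Benjamini-Hochberg), and 11748 genes with a probe well above background were tested.

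All 9 genes had a tested probe, and 6 of them were higher in K14-caSmad1 keratinocytes. Itga6, Cd44, Itgb1, Col17a1, Lamb3 and Itgb4 rose at the probes that represent them, with mean log2 ratios from 0.59 to 1.50. The other tested probe of Col17a1 was called lower (-0.11), a direction that turned under other processings (given below). Itga3 fell at the probe that represents it (log2 ratio -0.56) but was called higher at its other tested probe (0.15), Lama3 was called lower by a small margin (-0.11) that turned positive under other scalings (given below), and Dst did not pass the test (0.09). Averaging the tested probes of a gene moved Itga3 to -0.20, Col17a1 to 0.31, Cd44 to 0.54 and Dst to 0.41. Over all genes tested, 40.8% were called higher and 46.2% lower (86.9% in all), so most genes passed this test and a call on its own says little. Only Itga6 of the 9 was at least 2-fold higher on array 1 and array 2 alike, which held for 4.09% of all genes, and 0 of the 9 were 2-fold lower, which held for 9.81%. Past 2-fold either way were 13.9% of all genes. The median log2 ratio of the 9 genes was 0.62 (0.66 on array 1 and 0.58 on array 2), beside -0.03 over all genes tested. In this bulk RNA, a larger share of basal cells and more of a transcript per cell cannot be told apart.

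**Figure D1:**
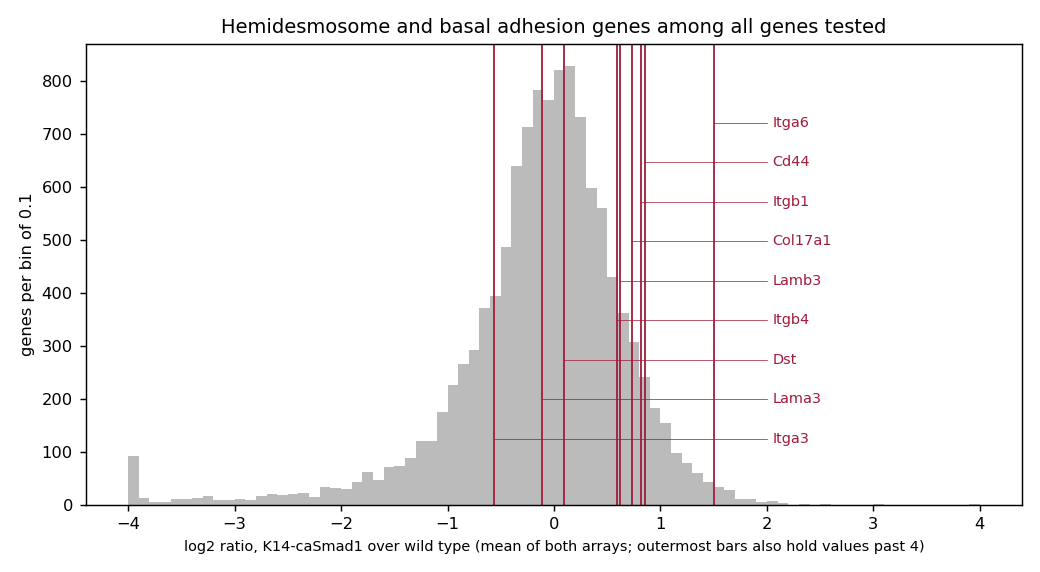
Histogram of the mean log2 ratio of K14-caSmad1 over wild type for all 11748 tested genes (bins of 0.1 log2 units, number of genes on the vertical axis), with a line for each of the 9 genes at the ratio of the probe that represents it. The lines of 6 genes, from Itgb4 at 0.59 to Itga6 at 1.50, lie to the right of the peak, Dst and Lama3 lie near 0 (Lama3 changes sign under other scalings), and Itga3 lies at -0.56.

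Transcripts of both subunits of the integrin α6β4 were higher. Itga6 encodes the α6 subunit, and its tested probe at chr2:71695973-71696032 (mm9, + strand) had normalised log2 levels of 11.90 and 11.69 in wild type and of 13.44 and 13.16 in K14-caSmad1 on arrays 1 and 2. Both K14-caSmad1 levels lay above both wild-type levels. The fold was 2.91 on array 1 and 2.75 on array 2, with a mean of 2.83 (log2 1.50 ± 0.032, limma SE, 2 arrays; adjusted p = 5.18e-05), and 99.1% of all genes tested had a lower ratio. The other 2 probes of Itga6 were too dim to test. The 1 at 1779 bases upstream had a ratio of 0.34 and was above background only in K14-caSmad1 on array 2, and the 1 at 3064 bases upstream had a ratio of 0.16 and was above background nowhere.

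Itgb4 encodes β4, the subunit whose long cytoplasmic tail recruits the plakins. It was read by 2 overlapping probes that share 50 of their 60 bases and are shifted by 10, at chr11:115869547-115869606 and chr11:115869557-115869616 (mm9, + strand). The outer 30 bases of each are shown because the pair measures nearly the same stretch of RNA, with the 10 bases that the other probe lacks in capitals.
Itgb4 A_52_P143287 (first 30 bases): GTCCAGGAACcataaagtgggtagaggtga
Itgb4 A_51_P408382 (last 30 bases): ttctgactgcatcccaccctGGGTCCAATC
The probe A_51_P408382, which represents the gene, had levels of 13.18 and 13.14 in wild type and of 13.81 and 13.70 in K14-caSmad1, a 1.50-fold rise (log2 0.59 ± 0.031, adjusted p = 0.000282 by limma). The levels of A_52_P143287 were 11.96 and 12.26 in wild type and 12.80 and 13.13 in K14-caSmad1, a 1.81-fold rise (log2 0.86 ± 0.026, adjusted p over probes = 9.29e-05 by limma). For both probes the K14-caSmad1 levels lay above the wild-type levels on both arrays, without overlap. Their ratios differed by 0.22 on array 1 and 0.32 on array 2, although they share 5 of every 6 bases. The remaining probe, 13670 bases upstream and drawn from a cerebellum cDNA, was above background nowhere (log2 ratio 0.09).

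Col17a1, the transmembrane collagen of the hemidesmosome, gave a different answer at each of its probes. At chr19:47720894-47720953 (mm9, - strand) the levels were 13.31 and 14.05 in wild type and 13.97 and 14.85 in K14-caSmad1. The ratio was above 0 on both arrays (0.66 and 0.80), a 1.66-fold rise (log2 0.73 ± 0.044, adjusted p = 0.000384 by limma), while the groups overlapped in level because array 2 was brighter in both channels. The second probe lies 312 bases upstream, at chr19:47721206-47721265, and had levels of 12.94 and 12.83 in wild type and of 12.86 and 12.68 in K14-caSmad1. It was called lower (log2 -0.11 ± 0.031, adjusted p over probes = 0.0310), a direction that turned under median centring and with normexp fitted on all spots. The call was also lost with no background subtraction (adjusted p over probes = 0.57 by limma) and with the scanner's processed signals (0.19). The same held in the deposited table (0.18) and with no filter on dim probes (0.078). The ratios of the pair parted by 0.74 on array 1 and 0.95 on array 2. Of the 2815 genes with several tested probes, 78.0% had a smaller range between probes, so a gap of this size was not rare on these arrays.

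Dst encodes dystonin, whose epidermal form is the plakin that ties the hemidesmosome to keratin, and the gene also makes longer forms in nerve and muscle. Of its 5 probes 2 were tested. The probe that represents the gene, A_52_P552955 at chr1:34240391-34240450 (mm9, + strand), was designed on a cDNA of neonatal head. It had levels of 12.77 and 12.85 in wild type and of 12.78 and 13.02 in K14-caSmad1, with ratios of 0.00 and 0.18 and overlapping groups, and did not pass the test (log2 0.09 ± 0.053, adjusted p = 0.183 by limma). With no background subtraction, median centring or the mean of its probes it did pass (log2 0.18, 0.38 and 0.41). The probe A_51_P300434 lies 124.253 kb further downstream, at chr1:34364644-34364703, and is annotated to the transcript variants a and b. Its levels were 9.64 and 9.40 in wild type and 10.41 and 10.11 in K14-caSmad1, a 1.67-fold rise (log2 0.74 ± 0.028, adjusted p over probes = 0.000136), with no overlap between the groups. This call was lost with normexp fitted on all spots (log2 0.49, adjusted p = 0.105). Which of the forms of dystonin either tested probe reads was not determined here. The rise at A_51_P300434 is therefore not read as a rise of the epidermal form. The other 3 probes, 13.388, 35.591 and 153.314 kb upstream of A_51_P300434, were above background nowhere. The most distant of them is shown because its coordinates span 2053 bases, far more than the length of the probe, and it gave a log2 ratio of 0.02.
Dst A_52_P445253: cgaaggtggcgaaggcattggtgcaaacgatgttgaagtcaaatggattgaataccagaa
The probe is in lower case because more than 1 reading frame is free of stop codons.

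Of the laminin chains, Lamb3 was higher, and Lama3 gave no stable direction. Lamb3 encodes the β3 chain and had 1 probe, at chr1:195167088-195167147 (mm9, + strand), which is given because the whole result for this chain rests on it.
Lamb3 A_51_P223656: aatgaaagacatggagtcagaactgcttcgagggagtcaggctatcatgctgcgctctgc
The probe is printed in lower case throughout, since 2 of its 3 sense frames are free of stop codons and none was singled out. Its levels were 10.23 and 10.45 in wild type and 10.89 and 11.03 in K14-caSmad1, with both K14-caSmad1 levels above both wild-type levels. This was a 1.54-fold rise (log2 0.62 ± 0.032, adjusted p = 0.000270 by limma), and the call was lost with normexp fitted on all spots (log2 0.47, adjusted p = 0.111). Lama3 encodes the α3 chain, the part of the laminin that the integrins bind, and its tested probe had levels of 10.55 and 11.42 in wild type and of 10.46 and 11.30 in K14-caSmad1. The ratios were -0.09 and -0.12, and the mean of -0.11 ± 0.026 passed the test (adjusted p = 0.0216 by limma) but became 0.20 under median centring, where it passed in the opposite direction. No direction is therefore given for Lama3. Its levels differed far more between the arrays than between the genotypes, by which the groups overlapped. The second Lama3 probe, 125.792 kb upstream, was above background only in K14-caSmad1 on array 2 (log2 ratio 0.14).

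**Figure D2:**
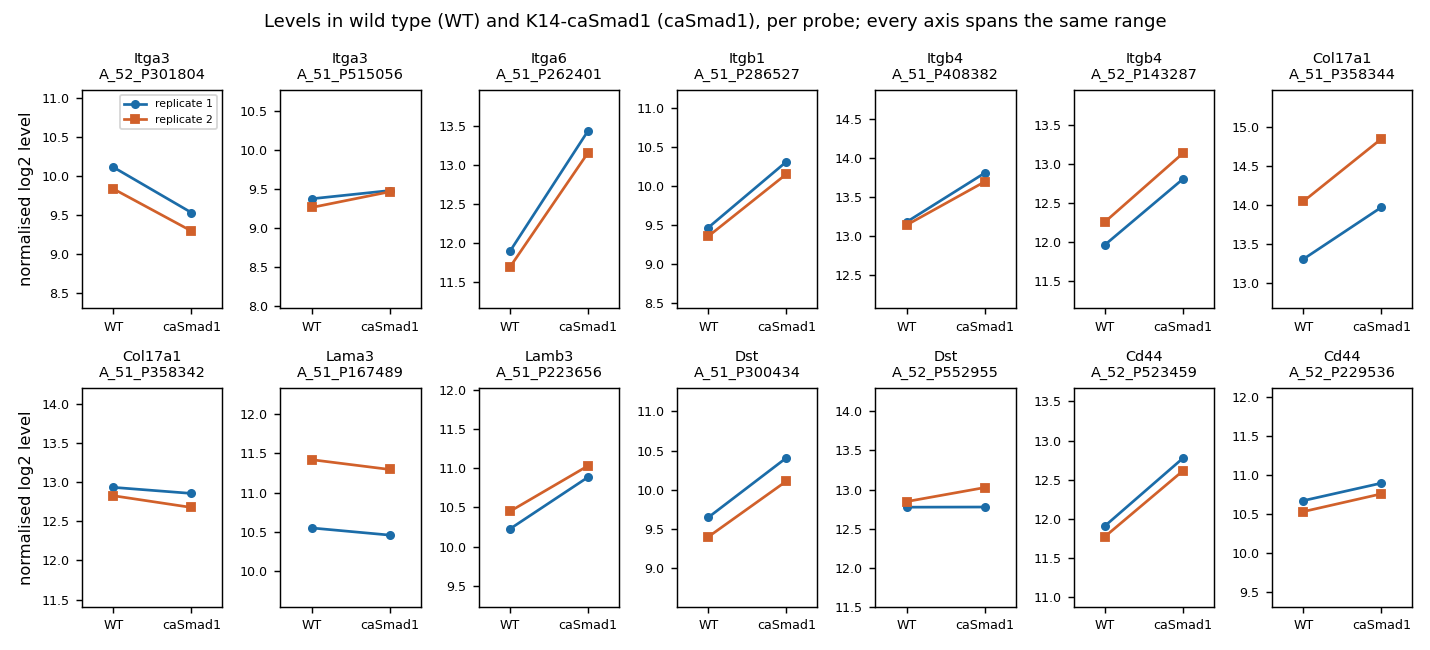
Normalised log2 level of each of the 14 tested probes in wild type and K14-caSmad1, with a line for each array (circles, replicate 1; squares, replicate 2); every panel spans the same number of log2 units. Itga6 has the steepest lines, from 11.90 to 13.44 on array 1. For Lama3, both probes of Col17a1 and the upstream tested probe of Dst, the widest distance between the arrays exceeds either slope.

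Of the integrin α3β1, the transcript of the β1 subunit was higher and the probes of α3 disagreed. Itgb1 encodes β1, the common partner of many α subunits, and its tested probe at chr8:131256492-131256551 (mm9, + strand) had levels of 9.47 and 9.36 in wild type and of 10.31 and 10.15 in K14-caSmad1. The K14-caSmad1 levels were higher on both arrays, a 1.76-fold rise (log2 0.82 ± 0.027, adjusted p = 0.000103 by limma). Of its 10 spots, 9 were usable on array 1, with log2 ratios from 0.65 to 0.94 (SD 0.079), and all 10 on array 2, from 0.69 to 0.86 (SD 0.052). Every usable spot was therefore above 0. The call was lost with normexp fitted on all spots (log2 0.53, adjusted p = 0.0677), and the ratio reached 1.37 in the deposited table.
The other 2 probes of Itgb1 were above background nowhere. The 1 shown here was designed on the β1D form, which is made in striated muscle. Its coordinates span 5019 bases. Capitals mark its only sense frame without a stop, which need not be the frame that is translated. Which frame is translated was not determined here.
Itgb1 A_52_P69236: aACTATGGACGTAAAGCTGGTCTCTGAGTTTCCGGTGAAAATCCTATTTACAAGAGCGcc
Its log2 ratio was 0.07, and that of the probe 10.143 kb upstream of the tested one was 0.34.

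Itga3 encodes α3, and its probes disagreed in sign. The probe at chr11:94905987-94906046 (mm9, - strand) had levels of 10.11 and 9.84 in wild type and of 9.53 and 9.30 in K14-caSmad1. Both K14-caSmad1 levels lay below both wild-type levels, a fall to 0.679 of the wild-type level (log2 -0.56 ± 0.027, adjusted p = 0.000224 by limma), a call lost with normexp fitted on all spots (log2 -0.34, adjusted p = 0.30). The probe 327 bases upstream, at chr11:94906314-94906373, was slightly higher, with levels of 9.37 and 9.26 in wild type and of 9.48 and 9.46 in K14-caSmad1 (log2 0.15 ± 0.035, adjusted p over probes = 0.0190). This call too was lost with normexp fitted on all spots (log2 0.11, adjusted p over probes = 0.80 by limma). The ratios of the pair parted by 0.69 on array 1 and 0.74 on array 2, a larger range than in 70.6% of genes with several tested probes. Over all such genes the median range was 0.44, and in 658 of them (23.4%) probes lay past 0.1 in opposite directions. The third probe lies 9.498 kb upstream and spans 1578 bases, more than the length of the probe.
Itga3 A_51_P230405: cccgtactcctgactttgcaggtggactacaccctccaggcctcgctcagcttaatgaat
It is shown because it lies far upstream of the other probes of Itga3, but it was above background nowhere (log2 ratio -0.25).

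Cd44, the hyaluronan receptor, rose at both tested probes and by unequal amounts. The probe at chr2:102651667-102651726 (mm9, - strand) had levels of 11.91 and 11.77 in wild type and of 12.77 and 12.61 in K14-caSmad1, a 1.81-fold rise (log2 0.85 ± 0.025, adjusted p = 8.43e-05 by limma). Its repeated spots had log2 ratios from 0.83 to 0.94 on array 1 (SD 0.038, 9 usable spots) and from 0.80 to 0.91 on array 2 (SD 0.039, 10 spots). The spots of each array thus lay within a narrow band well away from 0. The probe 1240 bases upstream, at chr2:102652907-102652966, had levels of 10.67 and 10.53 in wild type and of 10.90 and 10.76 in K14-caSmad1, a 1.17-fold rise (log2 0.23 ± 0.025, adjusted p over probes = 0.00208) whose call was lost with normexp fitted on all spots. The groups did not overlap at either probe. The last probe, 22.753 kb upstream of the first, is annotated to the transcript variants 1 and 2 of Cd44, whereas the first 2 are annotated to a further variant as well. It is shown for that reason, with the codons of its only sense frame without a stop in capitals.
Cd44 A_51_P407053: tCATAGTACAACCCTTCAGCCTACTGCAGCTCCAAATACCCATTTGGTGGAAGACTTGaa
It was above background nowhere and had a log2 ratio of 0.02, so nothing on the choice between Cd44 variants could be read from these arrays.

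**Figure D3:**
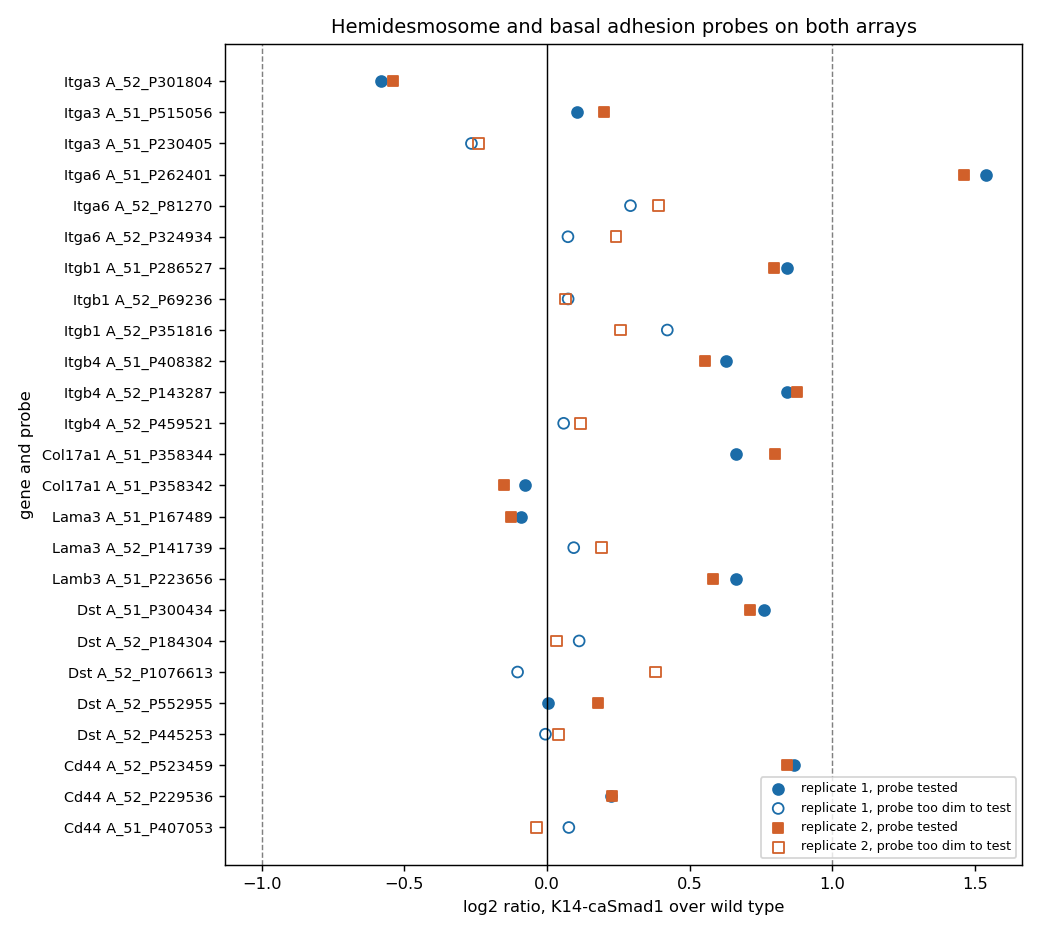
Log2 ratio of K14-caSmad1 over wild type for all 25 probes of the 9 genes on array 1 (circles) and array 2 (squares), filled where the probe was tested and open where it was too dim; dashed lines mark 2-fold. Only the tested Itga6 probe lies beyond a dashed line, at 1.54 and 1.46, and the symbols of most tested probes nearly touch.

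In all, 14 of the 25 probes were tested, and each of these was well above background in both channels on both arrays, so none entered through 1 group alone. By limma adjusted over probes 10 were higher, 3 lower and 1 did not pass, where 41.1% of all tested probes were higher and 45.5% lower. The 11 probes that were not tested had log2 ratios from -0.25 to 0.34, and 9 of them were above background in no channel of any array. All 11 lay upstream of the most 3′ probe of their gene. In each of the 8 genes with several probes the most 3′ probe was tested. The RNA had been amplified in 1 round, and whether amplification bears on the dimness of upstream probes was not tested. Within genes, the tested upstream probe had the lower absolute ratio in Itga3, Col17a1, Dst and Cd44, and the higher in Itgb4, where the probes are only 10 bases apart. The upstream ratios at these 4 genes lay between -0.11 and 0.23. For the genes read by 1 tested probe, Itga6, Itgb1, Lama3 and Lamb3, these arrays hold no second measurement against which the size of the ratio could be set.

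**Figure D4:**
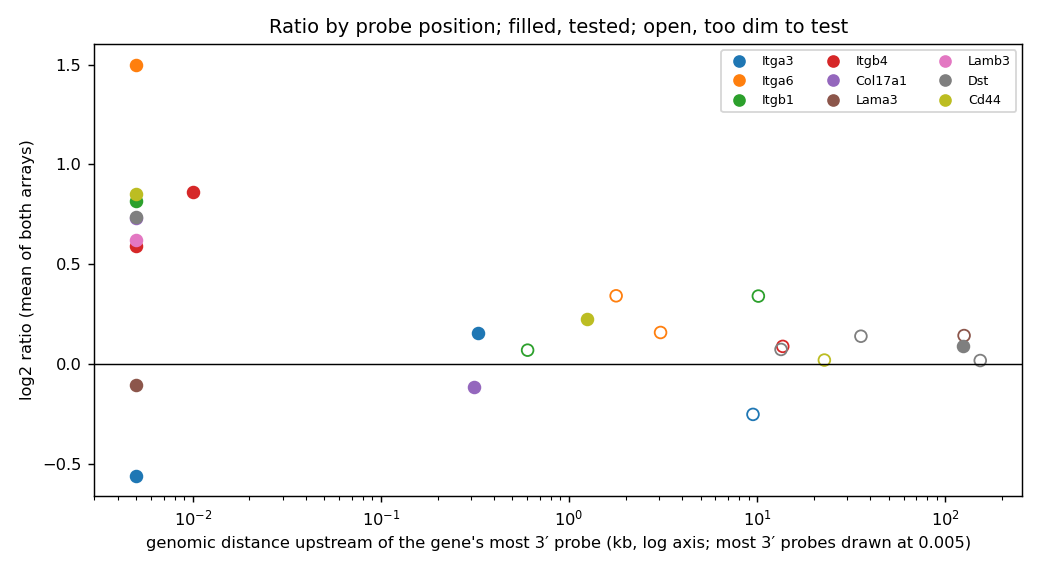
Mean log2 ratio of each probe against its genomic distance upstream of the most 3′ probe of the gene (kb, log axis; the most 3′ probes themselves are drawn at 0.005), coloured by gene, filled where tested and open where too dim. Tested probes at the left edge run from -0.56 for Itga3 to 1.50 for Itga6, and all probes beyond 0.1 kb lie between -0.25 and 0.34.

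Promoters from RefSeq (build GRCm38.p6) were read for 6 of the 9 genes, namely Itga3, Itgb1, Col17a1, Lamb3, Dst and Cd44, while those of Itga6, Itgb4 and Lama3 were not analysed here. The 6 genes gave 9 windows of the 250 bases before a transcription start, since some genes have several starts. A first motif searched on both strands was GGCGCC, a GC-rich sequence known to bind Smad1. The short element bound by Smad proteins was searched as CAGAC, which is GTCTG on the opposite strand. The site of the transcription factor AP-1 was searched as TGANTCA. The first and the last of these motifs read the same on both strands, and none of the 3 is contained in another. GGCGCC was in 1 of the 9 windows and in 9.586% of 32851 windows of all genes. CAGAC was in 5 of the 9 and in 42.194% of all windows, and TGANTCA was in 0 of the 9 and in 6.749% of all. The windows of Itgb1 and Lamb3 are shown as those of genes that rose and held the most matches, with GGCGCC and CAGAC or GTCTG in capitals: chr8:128685404-128685653 and chr1:193301744-193301993, both on the + strand.
Itgb1: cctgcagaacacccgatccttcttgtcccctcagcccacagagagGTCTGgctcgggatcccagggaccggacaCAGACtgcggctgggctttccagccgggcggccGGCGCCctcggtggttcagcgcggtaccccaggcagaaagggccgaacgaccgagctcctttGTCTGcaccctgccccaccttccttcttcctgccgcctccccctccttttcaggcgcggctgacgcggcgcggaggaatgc
Lamb3: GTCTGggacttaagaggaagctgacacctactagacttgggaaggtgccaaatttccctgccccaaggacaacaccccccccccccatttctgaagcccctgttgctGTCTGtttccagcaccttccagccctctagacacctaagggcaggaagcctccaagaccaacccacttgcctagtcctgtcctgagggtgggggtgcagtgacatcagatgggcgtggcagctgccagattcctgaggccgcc
In Itgb1, GGCGCC lay at -143 to -138 from the start and CAGAC or GTCTG at -205, -176 and -81. In Lamb3, GTCTG lay at -250 and -143 from the transcription start that this window precedes. The arrays hold no measurement of Smad1 binding at these places.

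Other genes of the hemidesmosome and its anchorage were higher as well. Of 5 further hemidesmosome and anchoring genes, all 5 were called higher, with a median of 0.53, where 40.8% of all genes tested were called higher. They were the basal keratins Krt5 (1.49 and 1.91 on arrays 1 and 2) and Krt14 (1.08 and 1.05), to which hemidesmosomes attach, the anchoring fibril collagen Col7a1 (0.54 and 0.51), plectin (Plec, 0.41 and 0.34) and the tetraspanin Cd151 (0.37 and 0.37). Krt5 and Krt14 were the only 2 of these past 2-fold. No gene of this list changed sign under the processings tried, and with normexp fitted on all spots 3 of the 5 were called higher. For that setting the share of all genes called is not given here.

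Of 22 other integrin subunits, 10 were tested, of which 4 were higher, 3 lower and 3 did not pass (median 0.11). Itga11, a collagen-binding subunit of fibroblasts, was not above background in K14-caSmad1 and at least 4.34-fold lower there (adjusted p = 4.11e-05 by limma); it was the only one past 2-fold. Of 27 other basement membrane genes, 14 were tested, with 7 higher, 5 lower and 2 not past the test (median 0.20), and Sparc, a secreted matrix protein, was the only one past 2-fold (1.27 and 1.15; 0.82 at its other probe). Of 26 focal adhesion genes 18 were tested, with 9 higher, 8 lower and 1 not past the test (median 0.15), and 0 reached 2-fold on both arrays. Of 15 partners of Cd44 and hyaluronan genes 9 were tested, with 4 higher, 4 lower and 1 not past the test (median 0.07). Among these Rdx, the linker radixin that binds the tail of Cd44, was past 2-fold (1.27 and 1.19). These calls depended on the processing. With median centring they became 7 higher and 2 lower integrins, 11 and 2 basement membrane genes, 12 and 4 focal adhesion genes and 6 and 1 genes of the Cd44 list. With normexp fitted on all spots they became 1 and 1, 3 and 1, 3 and 0, and 1 and 0, and Itga11 and Rdx were then not past 2-fold on both arrays. Median centring also moved the median of all genes, from -0.03 to 0.22. Shares of all genes called under either setting are not given here, so these counts are not read as results about the lists. Itga11 and 1 further integrin, 2 focal adhesion genes and 1 gene of the Cd44 list were above background in wild type alone, and 1 focal adhesion gene in K14-caSmad1 alone, so the filter fixed the direction in which they could be found. The medians of these 4 lists as reported lay closer to the median of all genes than the 0.62 of the 9 genes did, which is a description of the lists and was not tested as a difference.

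Markers of the layers and cell types in the preparation moved as well, and their part in the results above was not tested. All 4 of 4 basal keratinocyte markers were called higher (median 1.38), where 40.8% of all genes tested were. Trp63 was at 1.71 and 1.68 though its other probe stood at -0.78. The list also holds Krt5 and Krt14, which are counted among the anchoring genes above as well. Of 4 spinous markers 3 were higher (median 1.27), namely Krt1 (1.74 and 1.86), Dsc1 (1.31 and 1.29) and Dsg1a (1.19 and 1.31). The other probe of Dsc1 stood at 0.58. Krt10 did not pass at the probe that represents it (0.02) and stood at 2.29 at its other probe. Basal and spinous genes were therefore both higher, and the 9 adhesion genes did not stand alone in this. The summed level of the 9 adhesion genes, in intensity units after normalisation, was 38617 and 45877 in wild type and 60824 and 72880 in K14-caSmad1.

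Hair shaft genes were lower in 8 of 8 tested members of a list of 10, all past 2-fold (median -4.17), which held for 9.81% of all genes. Krt33a stood at -5.15 and -5.39, Krt86 at -5.15 and -5.26 and Krt34 at -5.01 and -4.87, and the list's summed level was 1247410 and 1319600 in wild type and 58907 and 54788 in K14-caSmad1. Of 9 melanocyte markers 3 were above background in both genotypes. These 3 were called lower, where 46.2% of all genes tested were, among them Pmel (-1.30 and -1.27) and Gpnmb (-1.20 and -1.12). A further 3 were above background in wild type alone, Mitf among them (at least 1.74-fold lower), so they passed the filter through wild type and could only come out lower. The summed level of the 6 was 8122 and 7464 in wild type and 3832 and 3267 in K14-caSmad1, where it includes signals not above background. Of 9 fibroblast markers 5 passed the filter, 4 of them through wild type alone, which fixed their direction. Among these 4 were Col3a1, at least 3.13-fold lower, and Col1a1, at least 2.39-fold lower. Vim, which other cells also express and which was the only one above background in both genotypes, rose (1.46 and 1.33), so that the list's summed level was 9599 and 10145 in wild type and 17337 and 17371 in K14-caSmad1. Of 9 endothelial markers 3 passed the filter, all through wild type alone, so their direction was fixed and is not read as a change. Their summed level was 2050 and 1942 in wild type, and in K14-caSmad1 none of the 3 was above background. Without the filter the median of all 9 was -0.08. Of 9 leukocyte markers 7 were tested, of which 4 were higher and 3 did not pass (median 0.11), with sums of 20811 and 28016 against 29420 and 35514. Over all genes tested 40.8% were called higher. Smad1 itself was 0.28 and 0.26 at its tested probe (adjusted p = 0.00123 by limma) and 0.13 at a probe too dim to test. The sources used here do not give whether these probes lie in the transgene, so Smad1 does not check the labels.

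The scale of the ratios depended on the normalisation. With median centring in place of loess the median of all genes moved from -0.03 to 0.22, and the median of the 9 genes from 0.62 to 0.93. Relative to the median of all genes, the 9 genes stood at 0.65 as reported and at 0.71 with median centring. The split of genes at least 2-fold apart on both arrays moved too, from 480 higher and 1152 lower (29.4% higher) to 1110 higher and 810 lower (57.8% higher) with median centring. It was 40.2% higher with the scanner's processed signals, 40.1% in the deposited table and 39.0% with normexp fitted on all spots. Itga6 was past 2-fold under each of these settings and ranged from 1.49 to 1.79. Itgb1 ranged from 0.53 to 1.37 and the downstream Dst probe from 0.49 to 1.18, the widest ranges among the tested probes that rose. Cd44 at its repeated probe ranged from 0.84 to 1.15. Itga3 at its downstream probe ranged from -0.83 to -0.29 and kept its sign under each setting.

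**Figure D5:**
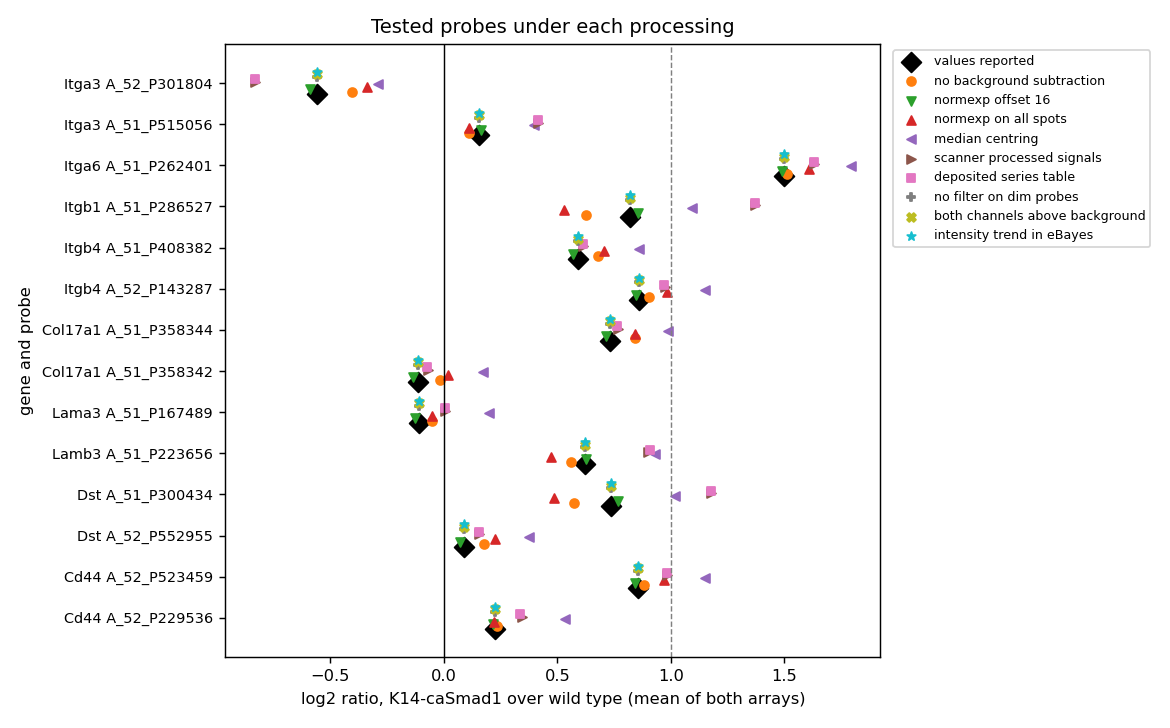
Mean log2 ratio of each of the 14 tested probes as reported (black diamonds) and under 9 other processings (coloured symbols); the dashed line marks 2-fold. Itga6 stays to the right of 1.49, whereas Lama3 and the upstream Col17a1 probe have symbols on both sides of 0.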

How the data were processed

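Per the labels, RNA of both genotypes was amplified in 1 round and hybridised to 2 two-colour Agilent arrays. By the barcodes in the file headers, the arrays lay on 1 slide. The authors deposited scanner files of Agilent Feature Extraction 10.5.1.1, with spot and background intensities not yet normalised, probe positions on mm9 and quality marks, per the file headers. They also deposited a table of the whole series, whose log10 ratios of Cy5 over Cy3 match those in the scanner files to within 0.059 on array 1 and 0.025 on array 2. Its medians were 0.023 and -0.01; its scale and direction are known from this match.

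From the intensities, 36 spots on non-uniform local background (all on array 1) were left out, the rest corrected by normexp with an offset of 50 (limma 3.58.1, R 4.3.3) and normalised within arrays by loess (span 0.3, control spots at weight 0). The deposited signals thus became log2 ratios with K14-caSmad1 over the wild type. Feature outliers (185 and 139 gene spots) were left out, among them 1 spot each of Itgb1 and Cd44 on array 1, and repeated spots were averaged. Probes well above background on both arrays in either channel were tested (15102), and the tested probe with the highest mean intensity represented a gene. limma's lmFit and eBayes tested the mean of both arrays against 0, with 1 residual degree of freedom and 2.59 prior degrees. The adjusted p is over all tested genes, or over all tested probes where so stated. The fit was tested on simulated data before use. Where a probe was above background in 1 genotype only, a bound is given, "at least N-fold". It divides the bright genotype's mean by a floor after loess and Aquantile normalisation; on each array the floor is the dim probe's own signal or, if greater, the lowest signal well above background, and the bound is open to dye bias.

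Named were all 9 genes with every probe and, from each other list, up to 3 genes with the largest ratio among those at least 2-fold apart the same way on both arrays, besides Krt5, Krt14, Plec, Cd151, Col7a1 and Smad1; Krt10 was named after its values were seen. 1 item of the lists is not reported here. The genes and lists were chosen with earlier results of these data known. Gene names were updated through RefSeq's table of GRCm38.p6. No mm9 annotation was used here, so exons and untranslated regions are not named. The precision is limited by the number of arrays. Alternatives were other background corrections, median centring, processed signals of the scanner, the series table, other filters, averaging over a gene's probes, an intensity trend and each array alone.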

Additional observations from a re-analysis of the deposited data

How the results depend on the processing

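The number of the 9 genes at least 2-fold apart on both arrays was 1 as reported, 3 with median centring, 2 with the scanner's processed signals and 2 in the deposited table. Their median of 0.62 became 0.53 with normexp on all spots, 0.93 with median centring, 0.77 with processed signals, 0.76 in the deposited table and 0.54 when probes were averaged per gene. Of all genes, 1632 were 2-fold apart, against 776 with normexp on all spots, 3124 with processed signals and 3120 in the deposited table. Lama3 turned from -0.11 to 0.20 with median centring, 0.0043 with processed signals and 0.0066 in the deposited table, and the upstream Col17a1 probe from -0.11 to 0.017 with normexp on all spots and 0.17 with median centring; the cause was not tested. With normexp on all spots 4 of the 9 genes were called higher and 0 lower. The share of all genes called under that setting is not given here, so this count has no background to be read against. Each array alone, with no test, gave a median of 0.58 to 0.66 for the 9 genes, 1 gene past 2-fold, and 1746 to 1765 genes past 2-fold in all. Each ratio already pairs the genotypes within an array, so the test reported is itself paired. No further pairing was possible, because the arrays form 1 group of ratios with no second group sharing their numbers. Precision is limited by 2 arrays without a dye swap, and by signal over background for the 11 dim probes.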
